A study of Mus musculus with 9 samples.

Results

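Matrix metalloproteinases (MMPs) and their tissue inhibitors (TIMPs) were followed in mouse liver through 10 genes, Mmp2, Mmp7, Mmp9, Mmp12, Mmp13, Mmp14, Mmp19, Timp1, Timp2 and Timp3. These genes were taken by symbol from the 24008 genes of the count table, and all 10 had enough reads to be tested, as did 14379 genes in all. The measurement was bulk RNA sequencing of whole liver from 9 male mice, 3 per group and 1 library per mouse. All mice began at 8 weeks of age and received a high-fat, high-carbohydrate diet with a fructose and glucose drink, which produces nonalcoholic steatohepatitis (NASH). The design gives 24 weeks of this diet, and the description of the vector gives 12 weeks.

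The Flox mice were the controls, named wild type in the sample labels and carrying floxed Irf4 without Cre according to the study. The F4MKO mice lacked the transcription factor IRF4 in skeletal muscle, through a Cre driven by Myl1, a gene of fast muscle fibres. The F4MKO + FSTL1 mice had the same deletion and received an adeno-associated virus (AAV8) in the gastrocnemius muscle that carried Flag-tagged FSTL1, a secreted glycoprotein, behind the muscle promoter MCK. Livers were taken 4 weeks after the injection. The study's methods give an AAV coding for GFP to the other two groups, which the sample labels do not mention. Deletion and transgene both act in muscle, so liver RNA cannot check them, and each direction given here rests on the labels. By those methods the F4MKO + FSTL1 group differs from F4MKO in the vector's cargo alone, whereas it differs from Flox in both the deletion and the cargo.

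Library totals ran from 20656976 to 24322984 reads assigned to genes. One F4MKO library, replicate 1, stood apart from the other 8 in its hepatocyte markers, which summed to 64800 CPM (read counts scaled to a common library size, after TMM normalization) against 78440 to 96870 in the others. It also had the highest level of 8 of the 10 genes within its group, the exceptions being Mmp19 and Timp3. The F4MKO to Flox fold changes and some of the F4MKO levels are also given without this library. In F4MKO + FSTL1 replicate 1 the liver Irf4 level was 0.467 CPM, against 4.24 to 6.06 CPM in the other 8 libraries. In whole tissue, fewer cells of a type and less RNA per cell cannot be told apart.

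MMPs are zinc-dependent endopeptidases that cut collagens, elastin, laminins and other matrix proteins, and that also release cytokines and receptors from cell surfaces. Most are secreted as inactive zymogens that other proteases open, and TIMPs block the active enzymes by binding the catalytic site one to one. In fibrotic liver, activated stellate cells and portal fibroblasts are known sources of Mmp2, Mmp14, Timp1 and Timp2, macrophages of Mmp12 and Mmp13, and epithelium of the bile ducts of Mmp7.

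Mmp7, Mmp12 and Mmp13 lie in 1 cluster of MMP genes on chromosome 9, and with Timp1 they had the largest fold changes of the 10 genes in the F4MKO + FSTL1 to F4MKO comparison. The 250 bases upstream of their RefSeq start sites (GRCm38.p6, plus strand, 5′ to 3′) are therefore shown, with the letters TGANTCA in capitals. This is the binding motif of the AP-1 factors, the Fos and Jun proteins, which are known regulators of MMP genes. Mmp7 and Mmp12 have another listed start site each. The window printed is the upstream one for Mmp7 and the downstream one for Mmp12, in each case the one that holds these letters.
Mmp7, chr9:7691840-7692089: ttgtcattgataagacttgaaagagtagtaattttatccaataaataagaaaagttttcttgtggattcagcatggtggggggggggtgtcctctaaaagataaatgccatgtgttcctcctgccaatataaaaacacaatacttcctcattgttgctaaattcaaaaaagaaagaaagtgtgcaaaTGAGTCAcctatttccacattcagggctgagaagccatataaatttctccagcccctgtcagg
Mmp12, chr9:7347124-7347373: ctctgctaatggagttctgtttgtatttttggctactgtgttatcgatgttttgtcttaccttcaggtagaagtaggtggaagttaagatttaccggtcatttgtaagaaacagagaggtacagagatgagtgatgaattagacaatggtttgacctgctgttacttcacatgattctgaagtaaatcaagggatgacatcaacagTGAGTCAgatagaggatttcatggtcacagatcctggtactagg
Mmp13, chr9:7272264-7272513: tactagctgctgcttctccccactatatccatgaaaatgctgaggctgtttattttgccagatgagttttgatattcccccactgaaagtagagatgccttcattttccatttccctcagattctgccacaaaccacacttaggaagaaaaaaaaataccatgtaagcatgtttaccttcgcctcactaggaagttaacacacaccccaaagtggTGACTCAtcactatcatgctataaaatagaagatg
Timp1, chrX:20869916-20870165: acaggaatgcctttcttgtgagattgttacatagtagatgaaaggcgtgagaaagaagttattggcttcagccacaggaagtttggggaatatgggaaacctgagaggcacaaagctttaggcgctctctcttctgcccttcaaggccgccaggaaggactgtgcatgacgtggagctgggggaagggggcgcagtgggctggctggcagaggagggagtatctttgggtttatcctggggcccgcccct

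The search covered windows of 300 bases, which run 50 bases past the start site, on both strands. It used 9 windows that RefSeq gives for 7 of the 10 genes (Mmp7, Mmp12, Mmp13, Mmp14, Timp1, Timp2 and Timp3). TGANTCA began 63 bases before the start site of Mmp7, 44 before that of Mmp12 and 35 before that of Mmp13. It was not found in the windows of Timp1, Timp2, Timp3 and Mmp14, nor in the other window of Mmp7 and of Mmp12. Of 32851 mouse promoter windows of this length, 7.81% held it. The letters GGGCGG, the core of a GC box, gave the opposite division, with a match in Timp1, Timp2, Timp3 and Mmp14 and none in Mmp7, Mmp12 and Mmp13 (35.7% of all windows). TATAAA was found in the windows of Mmp7, Mmp12 and Mmp13 only (13.6% of all windows). It began 123 and 26 bases before the start site in Mmp7 and 16 before it in Mmp13, but 4 bases past it in Mmp12. AGGAAG, a motif of ETS factors, was found for 6 of the 7 genes, all but Timp2 (35.4% of all windows). These matches describe letters in the windows and not bound sites.

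Mmp7 (matrilysin) is a small secreted protease without the hemopexin domain of most MMPs, and it spans chr9:7692090-7699585 on GRCm38. It drew 11, 26 and 4 reads from Flox mice, 306, 98 and 140 reads from F4MKO mice and 11, 3 and 10 reads from F4MKO + FSTL1 mice. These are 0.490, 1.07 and 0.178 CPM in Flox, 10.8, 4.10 and 5.59 CPM in F4MKO, and 0.514, 0.144 and 0.522 CPM in F4MKO + FSTL1. Every F4MKO library stood above every library of the other groups, whose values overlapped. Mmp7 rose 11.6-fold in F4MKO compared with Flox livers (log2 fold change 3.54, SE 0.52, adjusted p = 0.0351 in edgeR's quasi-likelihood test, adjusted after Benjamini and Hochberg over all tested genes). It was the 1 of the 10 genes that passed the threshold for differential expression, an adjusted p under 0.05 and a change above 1.5-fold, in that comparison. Over all tested genes, 0.202% passed it as higher.

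The call of Mmp7 was lost when any of 4 single libraries was left out. The adjusted p of edgeR's quasi-likelihood test was 0.132, 0.0656 and 0.107 without Flox replicate 1, 2 or 3, and 0.114 without F4MKO replicate 1. The log2 fold change was 4.34 without Flox replicate 2 and 3.04 without F4MKO replicate 1, the highest and the lowest of these fits. Mmp7 fell 17.3-fold in F4MKO + FSTL1 compared with F4MKO livers (log2 fold change -4.11, SE 0.57, adjusted p = 0.00152, edgeR). F4MKO + FSTL1 compared with Flox gave -0.58 (SE 0.71, adjusted p = 0.813, edgeR), with a few reads per library on both sides. An antisense transcript annotated across Mmp7, AV064505, is not among the listed genes, and whether strand was used in counting is not stated.

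Bile duct markers moved beside Mmp7. The 8 markers, of which 5 were tested, summed to 27.8 to 33.0 CPM in Flox, 38.2 to 60.8 CPM in F4MKO and 21.7 to 26.7 CPM in F4MKO + FSTL1. Epcam rose in F4MKO compared with Flox (log2 fold change 2.01, adjusted p = 0.0359, edgeR), and Krt19, Krt7 and Epcam fell in F4MKO + FSTL1 compared with F4MKO, by 1.87, 1.93 and 2.58 on the log2 scale. Mmp7 amounted to 1.48, 3.61 and 0.638% of the marker sum in Flox, 17.8, 10.8 and 13.8% in F4MKO and 2.37, 0.592 and 1.96% in F4MKO + FSTL1. Mmp7 thus differed between the groups by more than the marker sum did, and the part of bile duct cells in the result was not tested.

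**Figure D1:**
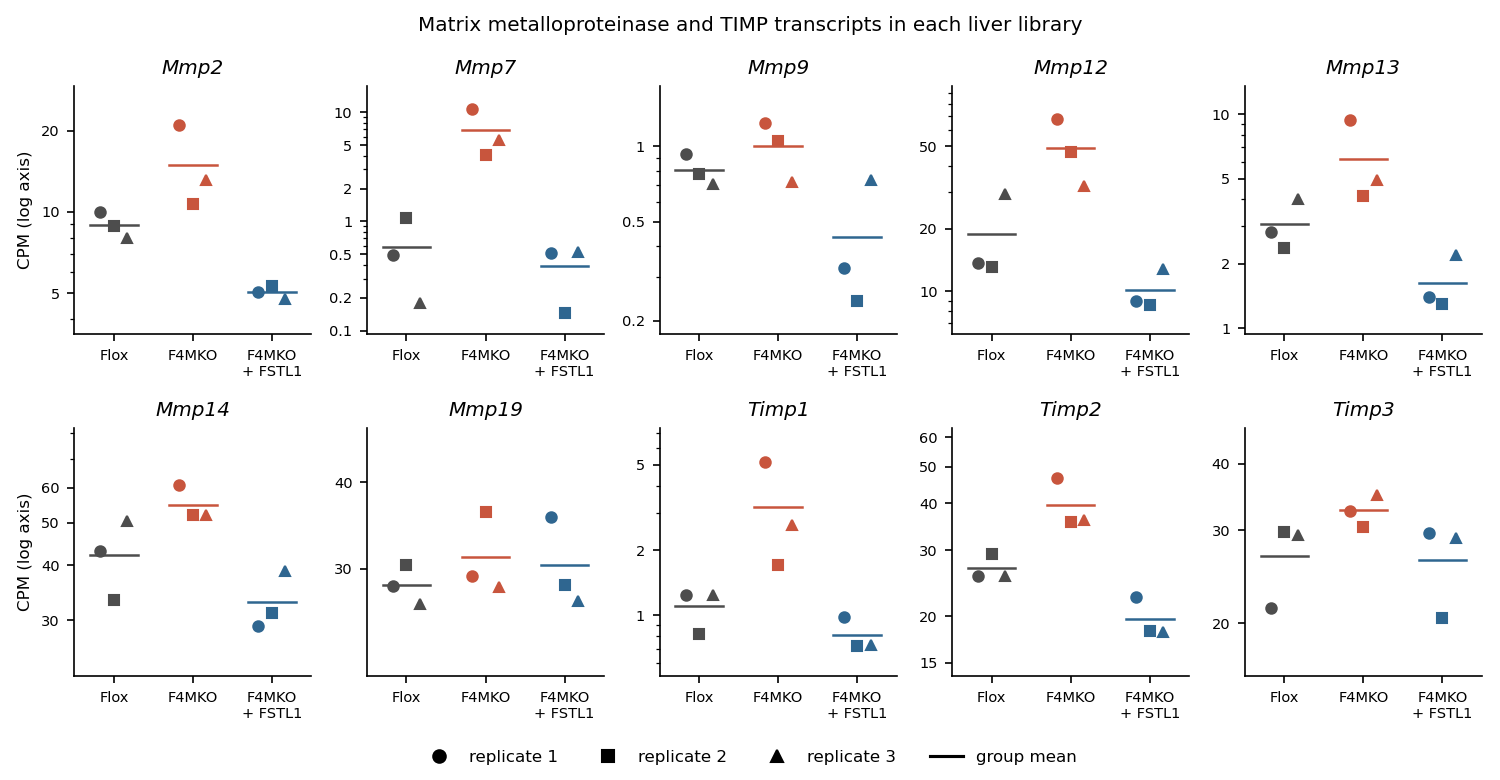
Level of each gene in every library, in CPM after TMM normalization on a log axis that differs between panels, by group, with 1 symbol per replicate number and a line at the group mean. The F4MKO libraries lie above the Flox libraries without overlap for 8 genes, Mmp9 and Mmp19 being the exceptions, and Mmp7 ranges from 4.10 to 10.8 CPM in F4MKO against at most 1.07 CPM elsewhere.

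Mmp12 (macrophage elastase, chr9:7344381-7369499) degrades elastin and is made mainly by macrophages. It stood at 13.7, 13.0 and 29.5 CPM in Flox, 67.6, 46.7 and 32.2 CPM in F4MKO and 8.97, 8.60 and 12.8 CPM in F4MKO + FSTL1. The 3 groups did not overlap, although Flox replicate 3 came close to the lowest F4MKO library. F4MKO compared with Flox gave a log2 fold change of 1.38, which missed the threshold (SE 0.33, adjusted p = 0.0824, edgeR). Mmp12 fell in F4MKO + FSTL1 compared with F4MKO (log2 fold change -2.27, SE 0.34, adjusted p = 0.00194, edgeR). Against Flox, the F4MKO + FSTL1 value was -0.89 (SE 0.34, adjusted p = 0.287, edgeR).

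The 10 macrophage markers summed to 438.1 to 715.4 CPM in Flox, 517.2 to 624.6 CPM in F4MKO and 257.9 to 405.6 CPM in F4MKO + FSTL1. Their median log2 fold change was 0.07 for F4MKO against Flox and -0.87 in F4MKO + FSTL1 compared with F4MKO. In the latter 6 of 10 passed the threshold as lower, as did 11.2% of all tested genes. Single markers differed in direction. Gpnmb, a gene of lipid-laden macrophages, rose in F4MKO compared with Flox (log2 fold change 1.70, adjusted p = 0.0404, edgeR). Marco and Timd4, genes of resident macrophages, had values of -1.41 and -1.26 that missed the threshold (adjusted p = 0.139 and 0.153, edgeR). Mmp12 amounted to 2.97, 2.97 and 4.13% of the macrophage marker sum in Flox, 13.1, 7.47 and 6.08% in F4MKO, and 3.31, 3.34 and 3.16% in F4MKO + FSTL1. Relative to this sum, F4MKO + FSTL1 and Flox overlapped and F4MKO was above both. The sum is weighted to its highest members, Cd5l, Clec4f and Csf1r (175, 137 and 83.4 CPM on average in Flox). Gpnmb averaged 18.6 CPM in Flox, 60.4 in F4MKO and 9.59 in F4MKO + FSTL1. Mmp12 averaged 18.8, 48.8 and 10.1 CPM in the same order. The part of macrophage number in the result was not tested.

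Mmp13 (collagenase-3, chr9:7272514-7283331) is the main interstitial collagenase of mice and cleaves fibrillar collagen. Its level was 2.81, 2.38 and 4.04 CPM in Flox, 9.44, 4.15 and 4.95 CPM in F4MKO and 1.40, 1.30 and 2.19 CPM in F4MKO + FSTL1. The groups did not overlap, although the highest Flox library came close to the lowest F4MKO library, and F4MKO replicate 1 stood well above the rest. Its difference between F4MKO and Flox was 1.01 on the log2 scale (SE 0.32, adjusted p = 0.159, edgeR), and 0.57 without F4MKO replicate 1. Mmp13 fell in F4MKO + FSTL1 compared with F4MKO (log2 fold change -1.93, SE 0.35, adjusted p = 0.00404, edgeR).

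The cluster that holds these genes spans 427.1 kb and 10 annotated MMP genes, of which 7 were listed and 4 were tested. Mmp3, Mmp8 and Mmp10 had 17, 70 and 2 reads over the 9 libraries and did not pass the filter on low counts. The other tested gene, Mmp27, lies 120.7 kb before the start of Mmp7. It had a log2 fold change of 0.30 in F4MKO compared with Flox (SE 0.25, adjusted p = 0.565, edgeR), and it fell in F4MKO + FSTL1 compared with F4MKO (-1.39, SE 0.27, adjusted p = 0.00501, edgeR). All 4 tested genes of the cluster thus passed the threshold as lower in F4MKO + FSTL1 compared with F4MKO, where 11.2% of all tested genes did.

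**Figure D2:**
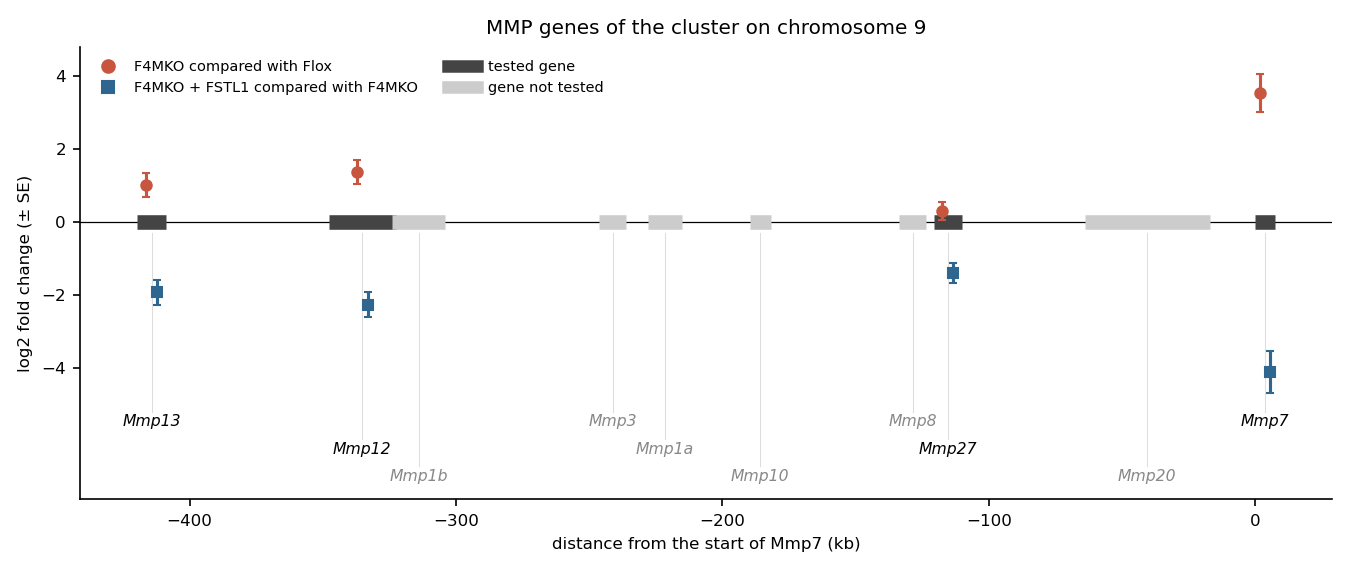
The 10 MMP genes of the cluster on chromosome 9, drawn to scale by their distance in kb from the start of Mmp7, with the log2 fold change and SE of the 4 tested genes in 2 comparisons. From Mmp13 to Mmp7 all 4 lie above 0 in F4MKO compared with Flox and below 0 in F4MKO + FSTL1 compared with F4MKO, and the points of Mmp7, at 3.54 and -4.11, are the farthest from 0.

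The gelatinases Mmp2 and Mmp9 digest denatured collagen and the type IV collagen of basement membranes. Mmp2 (chr8:92827291-92853420) stood at 9.99, 8.89 and 7.99 CPM in Flox, 20.9, 10.7 and 13.1 CPM in F4MKO and 5.05, 5.33 and 4.75 CPM in F4MKO + FSTL1. The 3 groups did not overlap, and the F4MKO + FSTL1 libraries lay closest together. Against Flox, F4MKO had a log2 fold change of 0.74 (SE 0.21, adjusted p = 0.127, edgeR), and 0.41 without F4MKO replicate 1. Mmp2 fell in F4MKO + FSTL1 compared with F4MKO (log2 fold change -1.56, SE 0.22, adjusted p = 0.00159, edgeR). F4MKO + FSTL1 compared with Flox gave -0.83 (SE 0.22, adjusted p = 0.157, edgeR), the lowest adjusted p of the 10 genes in that comparison.

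Mmp9 (chr2:164940780-164955850), which neutrophils store in granules, was counted with 5 to 35 reads per library. It stood at 0.936, 0.778 and 0.710 CPM in Flox, 1.24, 1.05 and 0.718 CPM in F4MKO and 0.327, 0.240 and 0.731 CPM in F4MKO + FSTL1. Replicate 3 of F4MKO + FSTL1 lay within the range of the other groups. The log2 fold changes were 0.31 for F4MKO against Flox (SE 0.36, adjusted p = 0.7, edgeR) and -1.22 in F4MKO + FSTL1 compared with F4MKO (SE 0.40, adjusted p = 0.0508, edgeR). The latter passed the threshold without F4MKO replicate 3 (adjusted p = 0.0385, edgeR) and without F4MKO + FSTL1 replicate 3 (adjusted p = 0.015, edgeR). The 10 neutrophil markers, of which 5 were tested, summed to 8.65 to 11.5 CPM in Flox, 11.0 to 15.7 CPM in F4MKO and 5.34 to 8.46 CPM in F4MKO + FSTL1, and their part in the Mmp9 values was not tested.

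Mmp14 (chr14:54431612-54445364) encodes membrane type 1 MMP, which cuts collagen at the cell surface and activates pro-MMP2 in a complex with TIMP2. Its level was 43.2, 33.3 and 50.4 CPM in Flox, 60.9, 52.0 and 52.1 CPM in F4MKO and 29.0, 31.2 and 38.8 CPM in F4MKO + FSTL1. F4MKO lay above both other groups, which overlapped. F4MKO and Flox differed by 0.38 on the log2 scale (SE 0.15, adjusted p = 0.243, edgeR). Mmp14 fell in F4MKO + FSTL1 compared with F4MKO (log2 fold change -0.74, SE 0.15, adjusted p = 0.00755, edgeR), the smallest change among the 7 genes that passed. In edgeR's test against a change of 1.5-fold, in place of 0, this gene missed the threshold (adjusted p = 0.471).

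Mmp19 (chr10:128790910-128800824), a secreted protease expressed in many healthy tissues, was the MMP of the 10 whose groups lay closest. It stood at 28.3, 30.4 and 26.7 CPM in Flox, 29.3, 36.3 and 28.2 CPM in F4MKO and 35.7, 28.5 and 27.0 CPM in F4MKO + FSTL1. All 3 groups overlapped. The log2 fold changes were 0.14 (SE 0.13) in F4MKO compared with Flox, -0.04 (SE 0.13) in F4MKO + FSTL1 compared with F4MKO and 0.10 (SE 0.13) in F4MKO + FSTL1 compared with Flox, with edgeR adjusted p-values of 0.636, 0.855 and 0.839. The sign of the last 2 values changed when single libraries were left out. Tmem198b, annotated on the opposite strand across the end of Mmp19, had 85 to 164 reads per library against 517 to 867 for Mmp19.

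Among the inhibitors, Timp1 had the largest change. Timp1 (chrX:20870166-20874735) is induced in activated stellate cells and other stromal cells and is a widely used marker of fibrosis. It stood at 1.25, 0.819 and 1.24 CPM in Flox, 5.16, 1.72 and 2.63 CPM in F4MKO and 0.981, 0.721 and 0.731 CPM in F4MKO + FSTL1. F4MKO lay above both other groups and ranged widely, with replicate 1 well above the other libraries. Compared with Flox, F4MKO gave a log2 fold change of 1.53 (SE 0.38, adjusted p = 0.0919, edgeR), and 0.99 without F4MKO replicate 1 (adjusted p = 0.309, edgeR). It passed the threshold with DESeq2 (adjusted p = 0.0141) and in edgeR without the filter on low counts (adjusted p = 0.00677). Timp1 fell in F4MKO + FSTL1 compared with F4MKO (log2 fold change -1.97, SE 0.40, adjusted p = 0.00649, edgeR). Timp1 lies within the span of Syn1, on the opposite strand, and Syn1 had 9 to 33 reads per library. Timp1 itself had 20 to 28 reads per library in Flox, 41 to 146 in F4MKO and 14 to 21 in F4MKO + FSTL1.

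Timp2 (chr11:118301069-118355740) inhibits active MMPs and, in low amounts, takes part in the activation of pro-MMP2 by MMP14. It stood at 25.5, 29.3 and 25.6 CPM in Flox, 46.6, 35.7 and 36.1 CPM in F4MKO and 22.5, 18.3 and 18.1 CPM in F4MKO + FSTL1. The 3 groups did not overlap. On the log2 scale F4MKO exceeded Flox by 0.56 (SE 0.13, adjusted p = 0.078, edgeR). Timp2 fell in F4MKO + FSTL1 compared with F4MKO (log2 fold change -1.01, SE 0.13, adjusted p = 0.0014, edgeR), the lowest adjusted p of the 10 genes. F4MKO + FSTL1 compared with Flox gave -0.45 (SE 0.13, adjusted p = 0.178, edgeR). A gene annotated on the same strand within the span of Timp2, Cep295nl, is not among the listed genes.

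Timp3 (chr10:86300372-86349506) is bound to the extracellular matrix and also inhibits ADAM17, the protease that sheds TNF. Its level was 21.4, 29.7 and 29.4 CPM in Flox, 32.6, 30.4 and 35.0 CPM in F4MKO and 29.7, 20.4 and 29.0 CPM in F4MKO + FSTL1. F4MKO lay above both other groups by a narrow margin, and those overlapped. The log2 fold changes were 0.28 (SE 0.16, adjusted p = 0.39, edgeR) in F4MKO compared with Flox and -0.31 (SE 0.16, adjusted p = 0.189, edgeR) in F4MKO + FSTL1 compared with F4MKO. Timp3 also lies within the span of a gene on the opposite strand, Syn3, with 50 to 85 reads per library.

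Taking the 10 genes by comparison, all 10 were higher in F4MKO than in Flox livers, 1 passed the threshold and 8 had groups that did not overlap, where 11.7% of all tested genes had non-overlapping groups with F4MKO higher. The median log2 fold change was 0.65, against 0.00 over all tested genes, and 7 of the 10 had an unadjusted p under 0.05, as did 16.9% of all tested genes. Between F4MKO + FSTL1 and F4MKO all 10 were lower in the former, and 7 passed the threshold as lower, as 11.2% of all tested genes did. The groups of 8 did not overlap, where 21.1% of all tested genes did not overlap with F4MKO + FSTL1 lower. The median was -1.39, against 0.01 over all tested genes. Relative to Flox, 9 genes were lower in F4MKO + FSTL1 and none passed the threshold in edgeR's quasi-likelihood test, although 6 had an unadjusted p under 0.05 (13.4% of all tested genes), and DESeq2 called Mmp2. Over all tested genes 0.00695% passed in either direction. The groups of Mmp2, Mmp12, Mmp13 and Timp2 did not overlap in that comparison, where 10.7% of all tested genes did not overlap with F4MKO + FSTL1 lower, and the median of the 10 was -0.51. The 3 comparisons share libraries in pairs, and their values are set side by side only. Without F4MKO replicate 1, none of the 10 passed in F4MKO compared with Flox, and 7 passed in F4MKO + FSTL1 compared with F4MKO. The F4MKO to Flox values were then 3.04 for Mmp7, 1.07 for Mmp12, 0.99 for Timp1, 0.57 for Mmp13, 0.42 for Timp2, 0.41 for Mmp2, 0.30 for Mmp14, 0.29 for Timp3, 0.18 for Mmp19 and 0.12 for Mmp9.

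**Figure D3:**
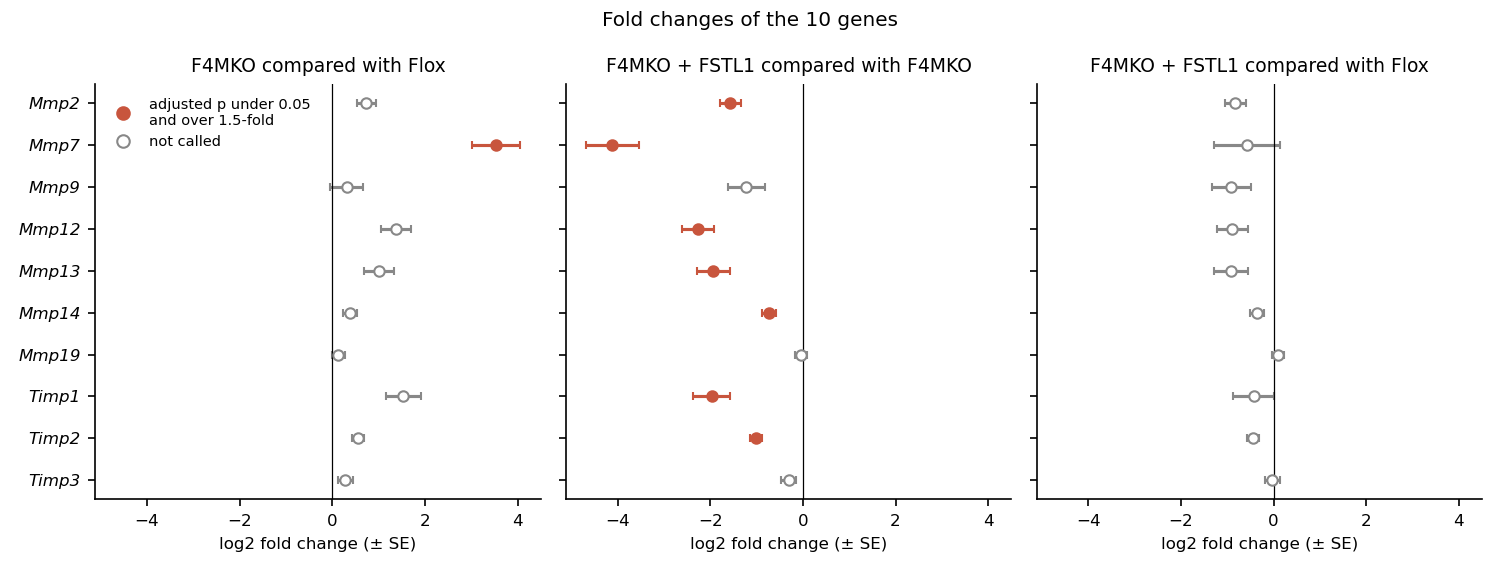
Log2 fold change with SE of each gene in the 3 comparisons, filled where the gene passed the threshold (adjusted p under 0.05 and above 1.5-fold). One gene, Mmp7, is filled in F4MKO compared with Flox, 7 are filled in F4MKO + FSTL1 compared with F4MKO, and none in F4MKO + FSTL1 compared with Flox, while Mmp19 lies near 0 in all 3.

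Levels were compared between genes as CPM per kilobase of annotated exons. In Flox livers the highest were Mmp19 (8.05 ± 0.52 CPM per kb, SD, n = 3), Mmp14 (7.10 ± 1.44) and Timp2 (6.88 ± 0.55). The range of Mmp14 overlapped those of Mmp19 (7.55 to 8.59) and Timp2 (6.56 to 7.52), which lay just apart from each other. Timp3 followed with 3.30 ± 0.58, then Mmp2 with 2.66 ± 0.30 and Mmp12 with 2.59 ± 1.29, and these neighbours overlapped too. Timp1 (1.24 ± 0.28) and Mmp13 (1.15 ± 0.32) overlapped, and Mmp7 (0.541 ± 0.42) and Mmp9 (0.228 ± 0.033) were lowest and overlapped. Timp2 and Timp3 were apart from each other, as were Mmp12 and Timp1. Another membrane type MMP, Mmp15, lay above all 10 genes with 9.33 ± 0.27.

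These lengths merge all annotated exons, and the order depends on that choice. On the longest transcript alone Mmp14 led in Flox with 13.1 ± 2.7 CPM per kb, ahead of Mmp15 (9.80 ± 0.29) and Mmp19 (8.36 ± 0.54).

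In F4MKO livers, on merged exons, Timp2 had 10.1 ± 1.6 CPM per kb, Mmp14 9.23 ± 0.86 and Mmp19 8.85 ± 1.25, and Mmp12 and Mmp7 came next with 6.74 ± 2.46 and 6.40 ± 3.31. By its mean Mmp7, next to last of the 10 in Flox, thus stood above Timp3, Mmp2, Timp1 and Mmp13. Its highest value, 10.1 in replicate 1, was the only one within the range of Mmp19, and without that library its mean was 4.54 and that of Mmp12 was 5.45. In F4MKO + FSTL1 livers Mmp7 was again among the lowest at 0.368 ± 0.20. There Mmp19 led the 10 genes with 8.60 ± 1.32 on merged exons, and Mmp14 led with 10.2 ± 1.6 on the longest transcript.

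The 7 MMPs together held 22.3 ± 1.8 CPM per kb in Flox, 38.2 ± 8.6 in F4MKO and 18.1 ± 1.2 in F4MKO + FSTL1. The 3 TIMPs held 11.4 ± 0.76, 17.7 ± 3.6 and 9.19 ± 1.26. The ratio of enzyme to inhibitor transcripts was 2.07, 1.71 and 2.10 in Flox, 2.21, 2.31 and 1.96 in F4MKO and 1.79, 2.09 and 2.09 in F4MKO + FSTL1. These ranges overlapped in all 3 groups, while the make-up of the MMP sum differed. Mmp7 made up 2.53% of it in Flox, 16.2% in F4MKO and 1.99% in F4MKO + FSTL1, and Mmp12 made up 11.4%, 17.3% and 7.69%. The share of Mmp19 was 36.4%, 24% and 47.5% in the same order. Of the TIMP sum, Timp1 made up 11.0%, 19.2% and 9.92%, and Timp2 made up 60.3%, 57.6% and 55.0%. Without F4MKO replicate 1 the F4MKO sums were 33.3 CPM per kb for the MMPs and 15.7 for the TIMPs, and the shares were 13.7% for Mmp7, 16.3% for Mmp12, 27.3% for Mmp19 and 15.5% for Timp1. Transcript levels do not show how much active enzyme or free inhibitor was present.

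**Figure D4:**
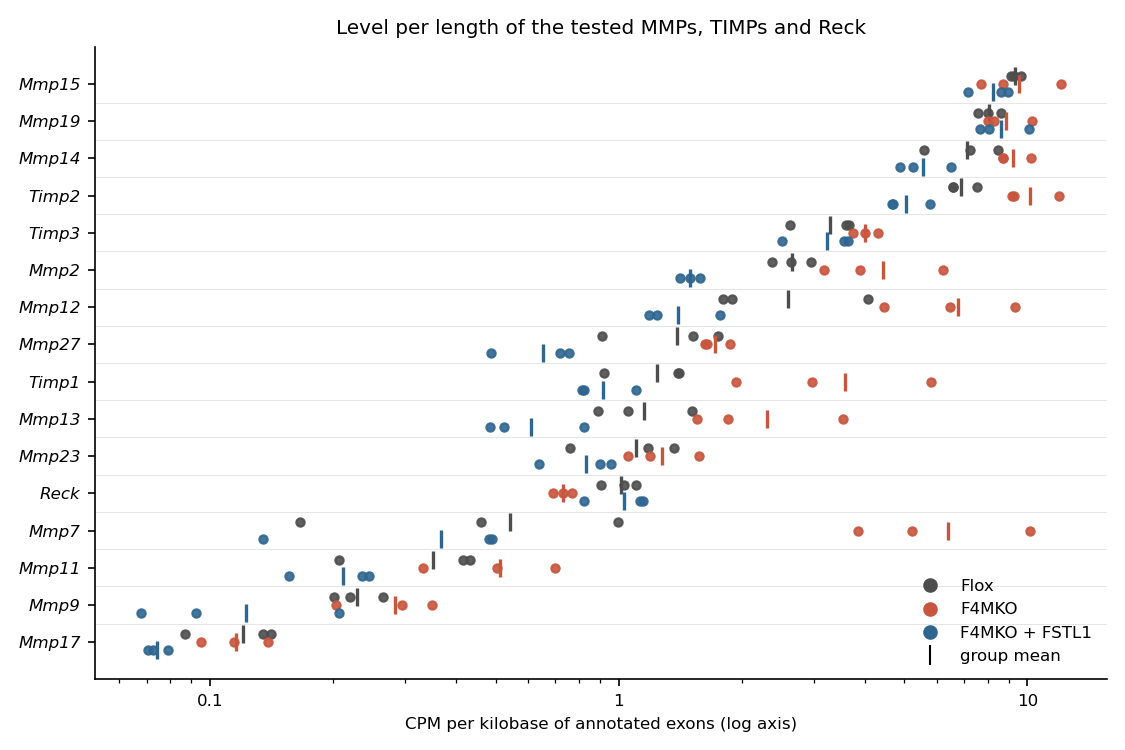
CPM per kilobase of annotated exons, on a log axis, of the tested MMPs, the TIMPs and the membrane-bound inhibitor Reck, with 1 point per library and a tick at each group mean, ordered by the Flox mean. Mmp7 spans the widest distance between groups, from a mean of 0.368 in F4MKO + FSTL1 to 6.40 in F4MKO, and Reck is the gene whose F4MKO points lie below those of both other groups.

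Stellate cell markers differed between the groups in the same directions as Mmp2, Mmp14, Timp1 and Timp2. The cell source of these transcripts in these livers was not measured. The 10 stellate cell markers, of which 9 were tested, summed to 165.5 to 191.2 CPM in Flox, 196.4 to 258 CPM in F4MKO and 116.9 to 151.6 CPM in F4MKO + FSTL1, so that this sum separated the groups as Mmp2 and Timp2 did. Their median log2 fold change was 0.32 for F4MKO against Flox. None of the 9 passed the threshold there in edgeR's quasi-likelihood test, and 3 had an unadjusted p under 0.05 (16.9% of all tested genes). In F4MKO + FSTL1 compared with F4MKO the median was -0.70, and 4 passed as lower (11.2% of all tested genes). Mmp14 amounted to 24.5% of the marker sum in Flox, 24.5% in F4MKO and 25.7% in F4MKO + FSTL1 on average, with overlapping ranges. Timp2 amounted to 15.1 to 15.5% in Flox, 16.3 to 18.2% in F4MKO and 14.7 to 15.6% in F4MKO + FSTL1. For Mmp2 the shares were 4.65 to 5.91%, 5.46 to 8.10% and 3.33 to 4.56%, and for Timp1 they were 0.429 to 0.751%, 0.874 to 2.0% and 0.592 to 0.647%. On average Mmp14 thus kept pace with the stellate cell markers, although its share ran from 17.4 to 30.5% within Flox. Timp2 nearly kept pace with them, and Timp1 in F4MKO ran ahead of them. Of the macrophage marker sum Mmp14 amounted to 7.05 to 9.35% in Flox, 8.33 to 11.8% in F4MKO and 9.57 to 12.1% in F4MKO + FSTL1. The part of stellate cell or macrophage number in these results was not tested. The 10 endothelial markers, by contrast, summed to 311.3 to 383.7 CPM in Flox, 233.6 to 311.7 CPM in F4MKO and 277.6 to 348.9 CPM in F4MKO + FSTL1. None of them passed the threshold in either of the first 2 comparisons in edgeR's test. In each, 2 had an unadjusted p under 0.05, against 16.9% and 35.3% of all tested genes in turn.

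**Figure D5:**
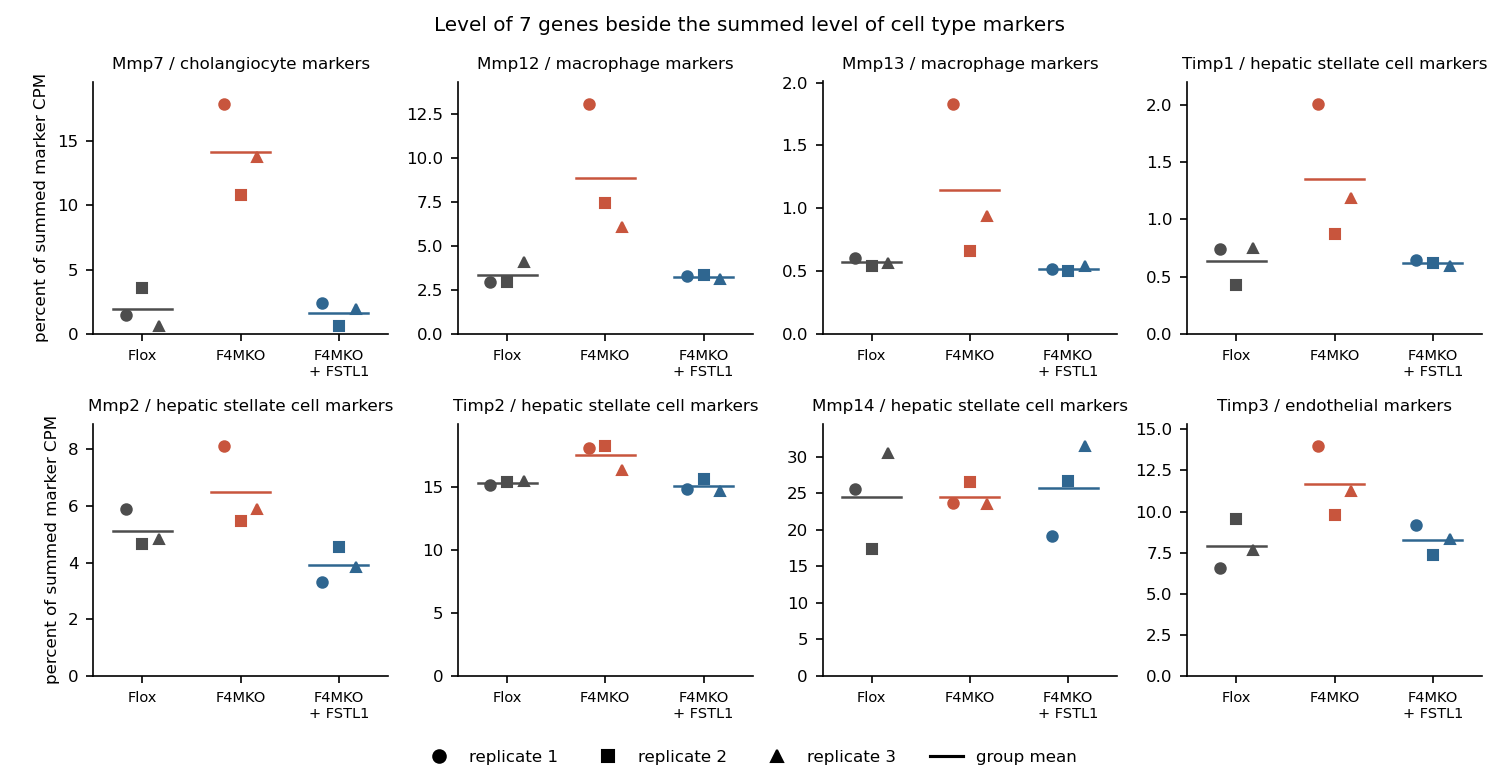
Levels of Mmp7, Mmp12, Mmp13, Timp1, Mmp2, Timp2, Mmp14 and Timp3 as a percentage of the summed CPM of a marker list, by group. Each panel has 1 symbol per replicate number and a line at the group mean (axes start at 0 and differ between panels). Mmp7 and Mmp12 in F4MKO lie above both other groups relative to the bile duct and macrophage markers (14.1% and 8.87% on average), whereas the Mmp14 share of the stellate cell markers overlaps in all 3 groups.

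The transcripts closest to each gene over the 9 libraries were found from log2 CPM centred on the gene's own mean, by the root mean square difference. Nearest to Mmp2 were Loxl1 (0.115), a collagen and elastin cross-linking enzyme, Sytl2 (0.139) and Pdgfra (0.161), a receptor of fibroblasts and stellate cells. Nearest to Mmp12 were Lgals3 (0.286), Csf2rb2 (0.291) and Gpnmb (0.311), and Lgals3 (0.194), which encodes galectin-3 of macrophages, was also nearest to Mmp13, followed by Arl11 (0.196) and Bcl2a1b (0.202). Timp1 was closest to Krt7 (0.228), a keratin of bile duct epithelium, then to Glipr1 (0.236) and Areg (0.24). The nearest to Mmp7 were Tspan8 (0.629), Sybu (0.648) and Sprr1a (0.705), none of them close. Mmp14 had Traf3ip2 (0.0895), Capn5 (0.0932) and Smo (0.0993), and Timp2 had 1700024P16Rik (0.0699), Amot (0.0727) and Lhfp (0.0787). A small distance describes a shared pattern over these libraries, which differ by group.

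Of 16 other MMPs 13 were listed and 5 were tested. None passed the threshold in F4MKO compared with Flox in edgeR's test, and none had an unadjusted p under 0.05, as 16.9% of all tested genes did. Mmp27 (above) and Mmp11, known as stromelysin-3 (-1.28, SE 0.38, adjusted p = 0.0371, edgeR), fell in F4MKO + FSTL1 compared with F4MKO, and Mmp15, Mmp17 and Mmp23 had values of -0.20, -0.65 and -0.62 that missed the threshold. Among other inhibitors, Reck, a membrane-anchored inhibitor of MMP2, MMP9 and MMP14, had the opposite direction to the 10 genes. Its level was 4.32, 4.92 and 5.28 CPM in Flox, 3.50, 3.31 and 3.67 CPM in F4MKO and 5.47, 3.94 and 5.38 CPM in F4MKO + FSTL1. F4MKO lay below both other groups without overlap. The log2 fold changes, -0.47 (SE 0.17, adjusted p = 0.207, edgeR) and 0.49 (SE 0.17, adjusted p = 0.0631, edgeR), missed the threshold. Pzp and Tfpi2 had the same directions as Reck, at -0.20 and -0.11 in F4MKO compared with Flox. Their values were 0.20 and 0.12 in F4MKO + FSTL1 compared with F4MKO, none past the threshold. For Pzp F4MKO too lay below both other groups, at 3324 to 3499 CPM. Flox ran from 3733 to 4078 and F4MKO + FSTL1 from 3740 to 4228 CPM. Of all tested genes, 10% had non-overlapping groups with F4MKO below Flox, and 18% with F4MKO + FSTL1 above F4MKO. Timp4 and A2m had too few reads.

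The proteases that open MMP zymogens were divided in direction. Of 12 genes of plasminogen activation and proprotein cleavage, none passed in F4MKO compared with Flox in edgeR's test. An unadjusted p under 0.05 was found there for 7, and for 16.9% of all tested genes. Of these genes 4 fell and 2 rose in F4MKO + FSTL1 compared with F4MKO. There 11.2% of all tested genes passed the threshold as lower and 3.21% as higher. The plasminogen activators Plat (-2.20, SE 0.33, adjusted p = 0.00184, edgeR) and Plau (-1.08, SE 0.22, adjusted p = 0.00745, edgeR) and the receptor Plaur (-0.90, SE 0.25, adjusted p = 0.0242, edgeR) fell, and Klkb1, the plasma kallikrein of hepatocytes, rose (0.64, SE 0.10, adjusted p = 0.0021, edgeR). Of 15 tested ADAM and ADAMTS proteases, 1 rose in F4MKO compared with Flox (0.202% of all tested genes), namely Adam8 (2.34, SE 0.35, adjusted p = 0.0351, edgeR). Between F4MKO + FSTL1 and F4MKO, 9 of the 15 fell (11.2% of all tested genes) and the median was -1.06. Adam8 stood at -2.62, the procollagen peptidase Adamts2 at -1.46, Adam33 at -1.45 and Adamts15 at -1.36.

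Transcripts of the matrix proteins that MMPs cut differed in the same directions. Of 21 tested substrates, 2 rose in F4MKO compared with Flox, Nid1, a basement membrane linker (1.11, SE 0.17, adjusted p = 0.0359, edgeR), and Spp1, osteopontin (2.05, SE 0.34, adjusted p = 0.0404, edgeR), and the median was 0.70. As higher, 0.202% of all tested genes passed in that comparison. Relative to F4MKO, 19 of the 21 fell in F4MKO + FSTL1 (11.2% of all tested genes), with a median of -1.23. The fibrillar collagens Col3a1 (-1.98, SE 0.21, adjusted p = 0.000751, edgeR) and Col1a2 (-1.63, SE 0.19, adjusted p = 0.000968, edgeR), Nid1 (-1.61) and Col6a1 (-1.11) had the lowest adjusted p-values. Col3a1 stood at 44.0, 50.9 and 41.1 CPM in Flox, 129.2, 88.0 and 78.3 CPM in F4MKO and 32.3, 21.8 and 20.6 CPM in F4MKO + FSTL1, and these groups did not overlap. None of the 21 passed in F4MKO + FSTL1 compared with Flox in edgeR's test. There 15 had an unadjusted p under 0.05 (13.4% of all tested genes) and the median was -0.55.

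Of 9 genes for proteins that bind MMPs or TIMPs, none passed in F4MKO compared with Flox in edgeR's test. An unadjusted p under 0.05 was found there for 3 (16.9% of all tested genes). In F4MKO + FSTL1 compared with F4MKO, 4 of the 9 fell (11.2% of all tested genes). These were Cd63, a TIMP1 receptor (-1.65, SE 0.30, adjusted p = 0.00429, edgeR), Cd44, which docks MMP9 and MMP7 at the cell surface (-0.94, SE 0.18, adjusted p = 0.00541, edgeR), Lcn2, which binds MMP9 (-1.46, SE 0.32, adjusted p = 0.00922, edgeR), and the integrin Itga3 (-0.60, SE 0.19, adjusted p = 0.0437, edgeR). Of 15 tested transcription factors known to act on MMP genes, none passed in F4MKO compared with Flox in edgeR's test. An unadjusted p under 0.05 was found there for 2, and for 16.9% of all tested genes. The myeloid factor Spi1 (-0.95, SE 0.19, adjusted p = 0.00552, edgeR), Runx2 (-1.24, SE 0.36, adjusted p = 0.0332, edgeR) and Egr1 (-1.14, SE 0.34, adjusted p = 0.034, edgeR) fell in F4MKO + FSTL1 compared with F4MKO. They were 3 of the 15, beside 11.2% of all tested genes. The AP-1 genes tested, Fos, Fosl2, Jun, Junb and Jund, had values from -0.35 to 0.17 in that comparison and from -0.51 to 0.33 in F4MKO compared with Flox, none past the threshold. Fosb and Fosl1 had too few reads.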

How the data were processed

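Whole-liver RNA of 9 mice was sequenced by the authors as 150 bp paired-end reads on BGIseq500, trimmed with Trim Galore 0.6.7, mapped to mm10 with HISAT2 2.2.1 and counted on genes with featureCounts 2.0.1. The gene annotation, the use of strand and the treatment of reads shared by genes are not given in the sources used here. The authors deposited whole-number counts per gene and library, without normalization, and these counts entered every test. Each label's replicate number names a separate mouse.

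The test was that of edgeR 4.0.16 in R 4.3.3. filterByExpr (minimum count 10, minimum total 15) kept 14379 genes, and TMM factors ran from 0.927 to 1.17. The quasi-likelihood fit took all 9 libraries and 1 mean for each group, and p-values were adjusted by Benjamini-Hochberg over all tested genes. The threshold was an adjusted p under 0.05 with a change above 1.5-fold. The SE of a log2 fold change was derived from the F statistic. CPM are TMM-normalized, with a prior count of 2 on the log2 scale. Exon lengths and positions came from GENCODE vM21 (GRCm38), and promoters from RefSeq (GRCm38.p6).

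The 10 genes and the gene and marker lists were chosen with earlier results of these data known. The text names the 10 genes, the tested other MMPs and inhibitors, at most 4 members per other list past the threshold (those with the lowest adjusted p), and the 3 nearest transcripts of each gene past it. Other genes named (Epcam, Krt7, Krt19, Gpnmb, Marco, Timd4, Cd5l, Clec4f, Csf1r, Spp1, Irf4, the AP-1 genes, and the genes overlapping the 10) and the shares of marker sums were chosen after their values were seen. Alternatives were DESeq2 1.42.0, its size factors within edgeR, all listed genes tested without a filter, a fit to the 6 libraries compared, a replicate block, no fold threshold, a test against a change of 1.5-fold, leaving out single libraries and, for levels, the longest transcript's length and unscaled library totals. Leaving F4MKO replicate 1 out of the levels was added after seeing the data. The fit was tested on simulated data. Libraries of a group differed by more than sampling noise, with a chi-square per gene from 22.2 to 40.3.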

Additional observations from a re-analysis of the deposited data

How the results depend on the processing

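The number of the 10 genes past the threshold in F4MKO compared with Flox depended on the processing. It was 1 in the fit reported, 4 with DESeq2 (Mmp2, Mmp12 and Timp1 beside Mmp7), 5 without the filter on low counts (also Mmp13), 0 with only the 6 libraries compared (Mmp7 adjusted p = 0.0512, edgeR), 0 in edgeR's test against a change of 1.5-fold and 0 to 1 when single libraries were left out. In F4MKO + FSTL1 compared with F4MKO it stayed between 6 and 8 of 10, with 7 to 8 when single libraries were left out. In F4MKO + FSTL1 compared with Flox it was 0, 1 with DESeq2 (Mmp2, adjusted p = 0.0373) and 2 without the filter (Mmp2 and Mmp12), and 0 when single libraries were left out. With the longest transcript as length, the ratio of MMP to TIMP levels in F4MKO was 2.41 in place of 2.16. Among the 10 genes Mmp14 then led in place of Mmp19 in Flox and F4MKO + FSTL1, and in place of Timp2 in F4MKO.

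No label ties a replicate number to a shared litter, batch or day, and not every pair's correlation passed 0.1, so the numbers were not taken as pairs. A factor shared by number was not excluded, since 5 of 9 libraries correlated best with their own number, with same-numbered deviations correlating from -0.0985 to 0.304 and those of replicate 3 from 0.169 to 0.304. With the replicate number as a block, 2 genes passed in F4MKO compared with Flox (Mmp7 and Timp1), 7 in F4MKO + FSTL1 compared with F4MKO and 0 in F4MKO + FSTL1 compared with Flox.

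Among the 10 genes, signs of log2 fold changes turned only when single libraries were left out, and only for values that missed the threshold. Mmp19 then ranged from -0.168 to 0.0801 in F4MKO + FSTL1 compared with F4MKO (above 0 at 0.0801, 0.045 and 0.00961) and from -0.0354 to 0.178 compared with Flox. In that last comparison Timp3 ranged from -0.163 to 0.131 (above 0 at 0.131, 0.0558 and 0.0448) and Mmp7 from -0.992 to 0.229.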

Other observations

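Hepatic Fstl1, the liver transcript of the gene whose protein the vector expresses in muscle, showed the same order of groups as Mmp2 and Timp2. It stood at 6.15, 7.62 and 6.52 CPM in Flox, 16.1, 9.80 and 11.3 CPM in F4MKO and 5.33, 3.22 and 4.34 CPM in F4MKO + FSTL1, and the groups did not overlap. The difference between F4MKO and Flox was 0.88 on the log2 scale (SE 0.21, adjusted p = 0.0864, edgeR), and it fell in F4MKO + FSTL1 compared with F4MKO (-1.53, SE 0.22, adjusted p = 0.00171, edgeR). Counts per gene do not tell endogenous Fstl1 reads from reads of the transgene, which is driven by a muscle promoter. The F4MKO + FSTL1 livers held the fewest Fstl1 reads.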
